A study of Homo sapiens with 8 samples.

Results

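The DNMT1 peaks found in DAXX knockdown cells were described here, in 2 classes. They were selected on the peak calls themselves, as all peaks of the K/D DNMT1 list on chromosomes 1 to 22, X and Y, which gave 595 of the 249711 peaks in the 6 lists of the study. A member that had at least 1 bp in common with a DNMT1 peak of the WT list was called shared (192 members), and a member with none in common was called K/D-only (403 members). The 2042 WT DNMT1 peaks without a member in common, called WT-only, served as the set to compare with. Since overlap with the WT list made the classes, the share of members that overlap is a description and not a result.

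ChIP-Seq was performed in PC3, an established line from a bone metastasis of prostate cancer, with antibodies to DAXX, DNMT1 and histone H3 at Lys4, in wild type cells (WT) and in a stable DAXX shRNA knockdown line (K/D), with input chromatin of each line as control. The labels give the genotypes as wild type and DAXX knock-down, while the text of the series speaks of a control shRNA line, so WT stands for either. The histone antibody is labelled DMHH3(Lys4), a prefix that is not spelled out, and H3(Lys4) is written here. Each of the 6 peak lists came from 1 library, the knockdown was 1 stable line, and no group had a replicate, so no p-value is given between peaks of the WT and of the K/D library. Odds ratios of K/D-only against WT-only peaks describe these 2 lists and not the conditions. The DNMT1 libraries held 14391288 tags in WT and 12050101 in K/D. Of these, 0.263% and 0.0663% lay in peaks. The K/D DNMT1 list was called at a threshold of 9 tags per peak, and its peaks held a mean of 13.3 tags, for which the exact 95% Poisson interval of a single peak is 7.16 to 22.6. All intervals below cover counting error only, and the tests describe these lists, since peaks of 1 library are not replicates.

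DNMT1 is the maintenance DNA methyltransferase. It copies methyl marks at CpG dinucleotides onto the new DNA strand after replication. DAXX is a histone chaperone for H3.3 and a transcriptional co-repressor that can bind DNMT1. AP-1 is the dimer of FOS and JUN family factors, which binds TGACTCA at many distal enhancers. CTCF is the insulator protein that bounds chromatin loops.

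The sequences of 11 members show what the classes hold. Each is the whole 121 bp peak on the plus strand of hg19 (GRCh37), in lower case. The first shows the leading member of the list, a shared peak in an intron of ARID5B with an AP-1 site (TGACTCA, here as TGAGTCA) in capitals.
ARID5B, chr10:63836813-63836933: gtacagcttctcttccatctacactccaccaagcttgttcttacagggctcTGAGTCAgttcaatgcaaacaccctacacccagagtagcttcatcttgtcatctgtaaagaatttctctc
The next 3 are shared members with the 7-mer ACAGTCA in capitals (TGACTGT on the other strand), which was frequent in this class. The peaks next to ARHGAP12 and in CTNNA3 are the first that have it and no AP-1 site, and the peak at the GIPR promoter is the member with the most copies (3 in the peak and 4 in the 201 bp around its centre).
ARHGAP12, chr10:32226005-32226125: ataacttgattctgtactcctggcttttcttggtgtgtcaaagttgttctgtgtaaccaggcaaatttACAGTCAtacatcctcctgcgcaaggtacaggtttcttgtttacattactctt
CTNNA3, chr10:69266425-69266545: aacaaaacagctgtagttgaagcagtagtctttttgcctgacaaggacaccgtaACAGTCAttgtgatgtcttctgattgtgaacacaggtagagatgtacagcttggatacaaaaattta
GIPR, chr19:46171027-46171147: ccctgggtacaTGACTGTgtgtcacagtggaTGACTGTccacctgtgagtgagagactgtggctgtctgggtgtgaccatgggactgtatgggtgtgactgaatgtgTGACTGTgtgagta
Of the K/D-only members, the first in the list lies 19.6 kb upstream of FOS and is CpG-rich. Its CpG dinucleotides are in capitals.
FOS, chr14:75725895-75726015: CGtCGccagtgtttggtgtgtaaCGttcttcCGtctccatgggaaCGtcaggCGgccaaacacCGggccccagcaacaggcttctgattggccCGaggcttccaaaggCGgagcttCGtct
The first 2 K/D-only members with an AP-1 site lie between protein-coding genes and are shown with the site in capitals.
TNFSF4, chr1:173131110-173131230: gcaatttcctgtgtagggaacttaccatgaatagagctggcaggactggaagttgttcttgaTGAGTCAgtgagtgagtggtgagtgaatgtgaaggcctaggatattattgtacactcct
ZMAT2, chr5:140098375-140098495: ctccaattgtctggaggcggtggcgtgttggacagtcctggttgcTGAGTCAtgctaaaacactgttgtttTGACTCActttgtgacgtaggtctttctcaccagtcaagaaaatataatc
The first 2 K/D-only members with a CTCF motif are shown with its match in capitals.
PCNX1, chr14:71439255-71439375: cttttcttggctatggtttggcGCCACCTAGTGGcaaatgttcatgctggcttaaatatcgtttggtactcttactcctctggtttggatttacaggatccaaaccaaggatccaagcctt
CASQ1, chr1:160163016-160163136: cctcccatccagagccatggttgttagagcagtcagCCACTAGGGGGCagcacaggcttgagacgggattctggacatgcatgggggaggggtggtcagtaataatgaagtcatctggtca
The last 2 are the first promoters of each class that are free of exons and rich in CpG, with the dinucleotide in capitals, the SRFBP1 peak being shared and the RSPH14 peak K/D-only.
SRFBP1, chr5:121297511-121297631: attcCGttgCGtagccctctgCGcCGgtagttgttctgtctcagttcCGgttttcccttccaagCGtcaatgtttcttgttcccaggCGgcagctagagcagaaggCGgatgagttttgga
RSPH14, chr22:23484196-23484316: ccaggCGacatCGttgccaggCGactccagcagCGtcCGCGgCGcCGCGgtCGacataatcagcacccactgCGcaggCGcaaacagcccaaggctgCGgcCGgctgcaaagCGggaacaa

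Across the list, 32.3% of members were shared with WT (28.5 to 36.2, exact 95% interval). For the other antibodies, 67.4% of K/D DAXX peaks and 48.2% of K/D H3(Lys4) regions had a WT peak of their own antibody in common. These shares are not on 1 scale with that of DNMT1. The WT lists held 59761 DAXX peaks and 72064 H3(Lys4) regions against 2234 DNMT1 peaks. Mean tags per K/D peak were 29.0 and 39.0 against 13.3. Sharing fell along the list in its deposited order. The score column was constant, so whether this order follows strength was not tested. Further down the list, the shared members ran in repeated blocks of chromosome order. Cut into 10 equal bins, the list had 91.7% shared members in the first bin (55 of 60 members), 56.7% in the second and 43.3% in the third, and between 8.47% and 31.7% in the others. Of the first 50 members 46 were shared. The median place was 134.5 for shared and 358 for K/D-only members. The 192 shared members paired with 192 WT peaks one to one, at a median centre offset of 25 bp, and 81 pairs (42.2%) had centres within 20 bp. Their WT partners came early in the WT list, at a median place of 187.5, and 155 (80.7%) were among its first 595 peaks. The Spearman correlation of the places in both lists was 0.62 over the 192 pairs, a description in which each point is 1 site and all points share the same 2 libraries.

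**Figure D1:**
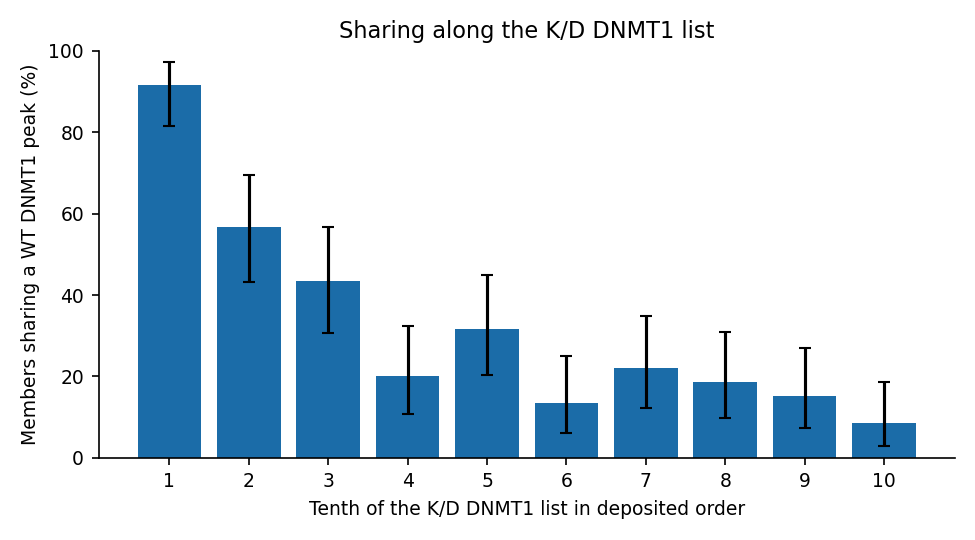
Share of K/D DNMT1 members with at least 1 bp in common with a WT DNMT1 peak (y axis, percent), for 10 equal bins of the K/D list in deposited order (x axis). Bars are shares of 59 or 60 members and error bars exact 95% intervals. The first bin reached 91.7% and the last 8.47%.

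At the border between the classes, the smallest overlaps were 6 bp at TMTC4, 9 bp at PRKCA, 19 bp at MED27, 22 bp at CMIP and 23 bp at NR2F1. The closest K/D-only members lay 11 bp from a WT peak at JAKMIP2, 18 bp at ZFHX4, 37 bp at DENND3, 39 bp at FERD3L and 43 bp at SLX4IP. Such near neighbours were few. Only 7 K/D-only members lay within 100 bp of a WT peak and 23 (5.71%) within 1 kb, while the median distance was 148949 bp and 47 (11.7%) lay within 10 kb.

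The first 8 shared members were at ARID5B, THEM4, DSTYK, MAML3, MYLK4, ARHGAP12, PTHLH and CTNNA3. PTHLH encodes parathyroid hormone-related protein, a factor of bone metastasis, and CTNNA3 encodes an alpha-catenin of cell contacts. Of these 8, ARID5B, THEM4, DSTYK, MYLK4, ARHGAP12 and PTHLH lay on a WT DAXX peak, and K/D DAXX was called at none. In the K/D-only class the first 8 lay at FOS (place 3 of the list), EGR2 (20), TLE4 (29), TNFSF4 (33), ZHX1 (52), the gene ENSG00000283765 (63), ZMAT2 (65) and PCDH9 (67). FOS and EGR2 are immediate early transcription factors, and the members stood 19.6 kb upstream of FOS and 85.5 kb upstream of EGR2, with no DAXX peak or H3(Lys4) region of either line on them. The peaks at ZHX1 and ENSG00000283765 were promoters on K/D DAXX, the second on WT DAXX too, with 20 and 17 CpG in 201 bp, and the FOS peak had 16. The peaks at TLE4, TNFSF4, ZMAT2 and PCDH9 lay on no DAXX peak or H3(Lys4) region either.

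K/D-only members lay on WT DAXX peaks less often than shared members. Of the shared members 107 (55.7%, 48.4 to 62.9) had a WT DAXX peak in common, of the K/D-only members 118 (29.3%, 24.9 to 34.0), and of the WT-only peaks 1072 (52.5%, 50.3 to 54.7). The odds ratio of shared against K/D-only was 3.03 (2.09 to 4.41, Fisher's exact test, two-sided, adjusted p = 4.32e-09 over the 9 tests run). The odds ratio of K/D-only against WT-only peaks was 0.375 (0.295 to 0.475). That of shared against K/D-only was 2.78 (1.90 to 4.06) when combined over the upper and the lower 50% of the K/D list. Shared and WT-only peaks were both selected by a DNMT1 call in WT, and the overlap is with DAXX calls of that same line. Of all WT DNMT1 peaks, 52.6% lay on WT DAXX. These comparisons therefore cannot separate a trait of the members from the selection on WT calls.

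On K/D DAXX peaks the classes were closer. Of the shared members 74 (38.5%), of the K/D-only members 129 (32.0%) and of the WT-only peaks 606 (29.7%) had one. The odds ratio of shared against K/D-only was 1.33 (0.915 to 1.93, Fisher's exact test, adjusted p = 0.151) and did not pass. That of K/D-only against WT-only was 1.12 (0.879 to 1.41), and it turned to 0.842 (0.630 to 1.12) when the WT list was cut to the length of the K/D list. Counted the other way, 1.58% of all K/D DAXX peaks had a WT DNMT1 peak in common. This is a share of DAXX peaks and not a background rate for the shares of DNMT1 peaks above.

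Read by both DAXX lists, 32.8% of shared members lay on DAXX in both lines, 22.9% on WT DAXX alone and 5.73% on K/D DAXX alone. Of K/D-only members these shares were 21.8%, 7.44% and 10.2%, and of WT-only peaks 26.4%, 26.1% and 3.23%. No DAXX peak of either line was present at 38.5% of shared, 60.5% of K/D-only and 44.3% of WT-only peaks. Most K/D-only members lay away from every DAXX peak called.

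H3(Lys4) regions of WT covered 28.1% of shared, 22.3% of K/D-only and 38.5% of WT-only peaks. In K/D they covered 17.7%, 22.3% and 21.0%. The odds ratio of shared against K/D-only on K/D H3(Lys4) was 0.749 (0.467 to 1.18, Fisher's exact test, adjusted p = 0.264) and did not pass. With neither DAXX nor H3(Lys4) of either line were 21.9% of shared, 44.4% (39.5 to 49.4) of K/D-only and 26.7% of WT-only peaks. The intervals of the shared and WT-only shares, 16.2 to 28.4 and 24.8 to 28.7, both lay below that of the K/D-only members.

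**Figure D2:**
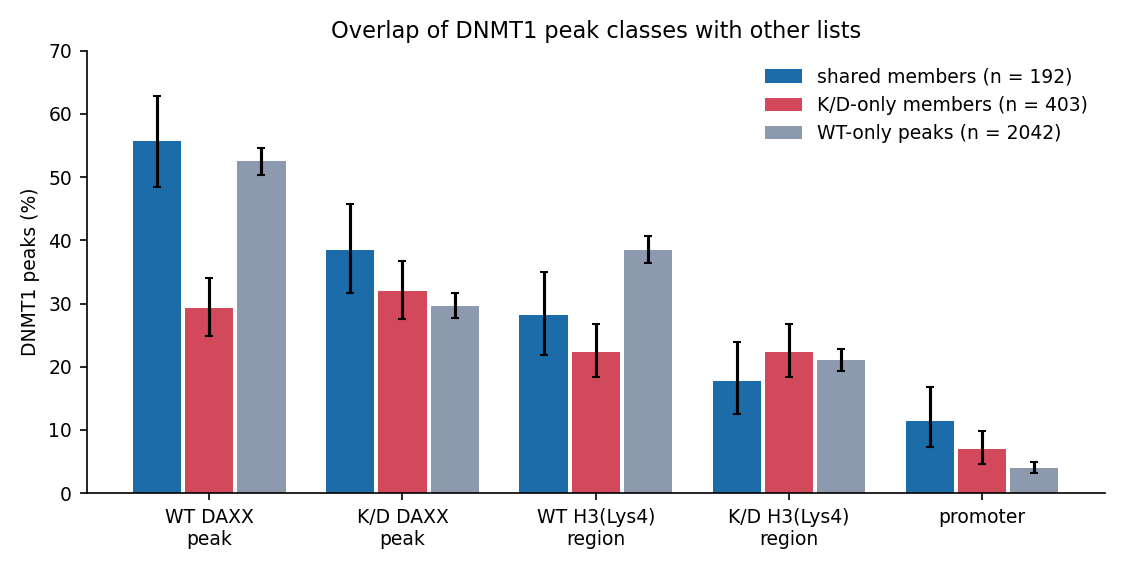
Share of shared members (n = 192), K/D-only members (n = 403) and WT-only DNMT1 peaks (n = 2042) that lay on peaks of the other lists or at promoters (y axis, percent of DNMT1 peaks, x axis, list). Error bars are exact 95% intervals. On WT DAXX, K/D-only members stood at 29.3% against 55.7% and 52.5%, and on K/D DAXX the 3 classes lay between 29.7% and 38.5%.

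AP-1 sites lay within 100 bp of the centre in 56 shared members (29.2%), 81 K/D-only members (20.1%) and 568 WT-only peaks (27.8%), against 4.17%, 3.35% and 3.31% of windows 2 kb away. K/D-only members had fewer than shared ones (odds ratio of shared against K/D-only 1.64, 1.08 to 2.47, Fisher's exact test, adjusted p = 0.0298). This difference lost its call without chromosome 10 (odds ratio 1.51, 0.975 to 2.34, adjusted p = 0.0786), in the first 50% of the list (1.68, adjusted p = 0.0926) and when combined over both parts (1.59, adjusted p = 0.108), all by exact tests or, for the last, the Mantel-Haenszel estimate. With sites within 50 bp of the centre the odds ratio was 1.03 (Fisher's exact test, adjusted p = 1). The odds ratio of K/D-only against WT-only peaks was 0.653 (0.496 to 0.853), and its interval reached past 1 in the first 50% of the list (0.665, 0.428 to 1.01) and with sites within 50 bp (0.769, 0.552 to 1.06).

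The median distance of the nearest AP-1 site from the centre was 49.5 bp in shared, 26.0 bp in K/D-only and 38.0 bp in WT-only peaks, and 37.5%, 54.3% and 40.7% of the peaks with a site had it within 30 bp. These distances are a description without a test. The 137 members with an AP-1 site lay on K/D DAXX in 47.4% of cases and the 458 without in 30.1%. Only 2 of the 50 promoter members had one.

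**Figure D3:**
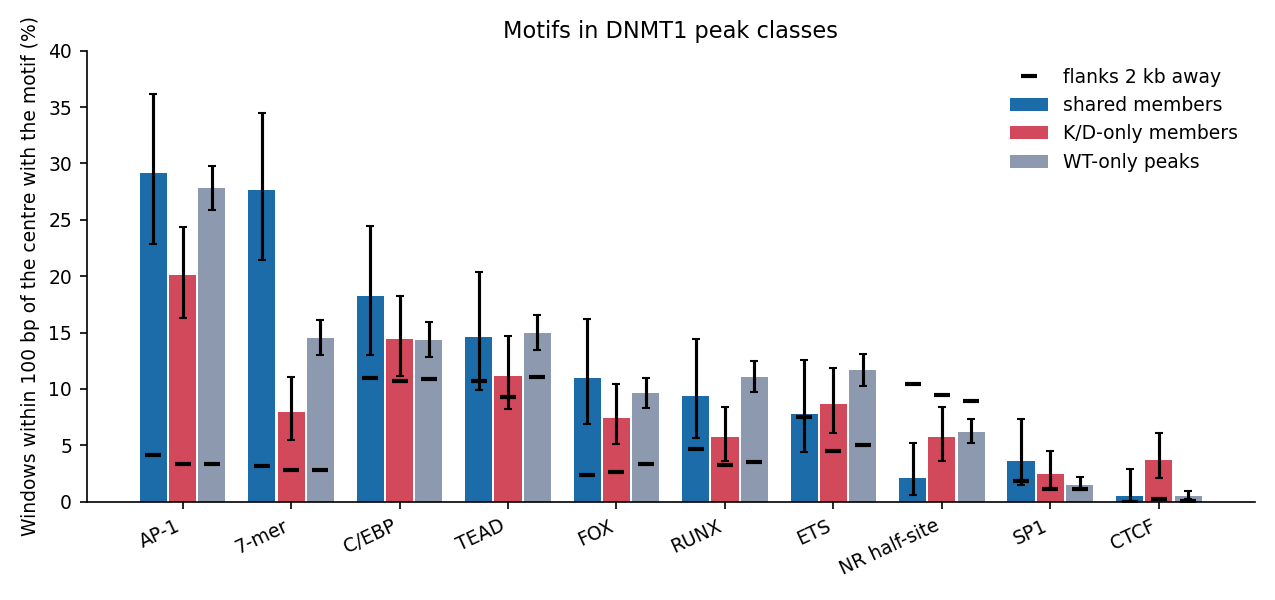
Share of 201 bp windows with each motif (y axis, percent) in shared members, K/D-only members and WT-only peaks, with exact 95% intervals. The black ticks mark the windows 2 kb away, and 7-mer stands for ACAGTCA as printed with the sequences. AP-1 was above its flanks in every class, the 7-mer reached 27.6% in shared members, where it was picked, and CTCF stood at 3.72% in K/D-only members.

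The 7-mer ACAGTCA was found by ranking all 7-mers by their excess over the flanks in shared members, so its excess has no test. It was picked in the class where it is high, so its difference from the other classes is a description and not a result. It stood in 53 shared members (27.6%, 21.4 to 34.5), 32 K/D-only members (7.94%, 5.49 to 11.0) and 296 WT-only peaks (14.5%, 13.0 to 16.1), beside 3.13%, 2.85% and 2.82% of their flanking windows. Of the 53, 18 had an AP-1 site too. Of the shared members with it, 60.4% lay on WT DAXX, and of those without, 54.0%. The other 7-mers that led in shared members, AGTACAC and CTACAGC, stood in 8.85% and 7.81% of them and in 3.72% and 2.98% of K/D-only members. In K/D-only members the leading 7-mer was the AP-1 site itself.

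The CTCF motif stood in 15 K/D-only members (3.72%, exact 95% interval 2.1 to 6.06). It stood in 1 shared member (0.521%, 0.0132 to 2.87), at the SCAP promoter, and in 11 WT-only peaks (0.539%). The intervals of the K/D-only and shared members overlapped, and the difference between these classes was not tested. In flanking windows of K/D-only members the motif was in 2 of 806. The 15, named after their values were seen, were at PCNX1, SLC38A6, CASQ1, ZNF281, ANKRD44, SND1, PPP4R1, ARL2-SNX15, ADCY6, SMUG1, MIPOL1, DHRS7, GPHB5, REXO1 and ATP9A. None lay on WT DAXX (0 of 15, exact 95% upper limit 21.8%) or had an AP-1 site, 2 lay on K/D DAXX, and 12 lay on no DAXX peak or H3(Lys4) region at all. A match is a description of letters and not a bound site.

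Of the other motifs, FOX (TGTTTAC) was in 10.9% of shared and 7.44% of K/D-only members against 2.34% and 2.61% of flanks, RUNX (TGTGGTT) in 9.38% and 5.71% against 4.69% and 3.23%, and ETS (CAGGAAG or CCGGAAG) in 7.81% and 8.68% against 7.55% and 4.47%. The nuclear receptor half-site (TGACCTC or TGACCTT) was below its flanks, in 2.08% of shared members against 10.4% and in 5.71% of K/D-only members against 9.43%. WT-only peaks were below theirs too, at 6.22% against 8.96%. Repeats were not compared between peaks and flanks, and their part in these shares was not tested. C/EBP (TTGCNNAA) was in 18.2% and 14.4% against 10.9% and 10.7%, and TEAD (GGAATG), near its flanks, in 14.6% and 11.2% against 10.7% and 9.31%. SP1 (GGGGCGG), NF-kB and CRE (TGACGTCA) were in under 4% of each class. All were searched on both strands.

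**Figure D4:**
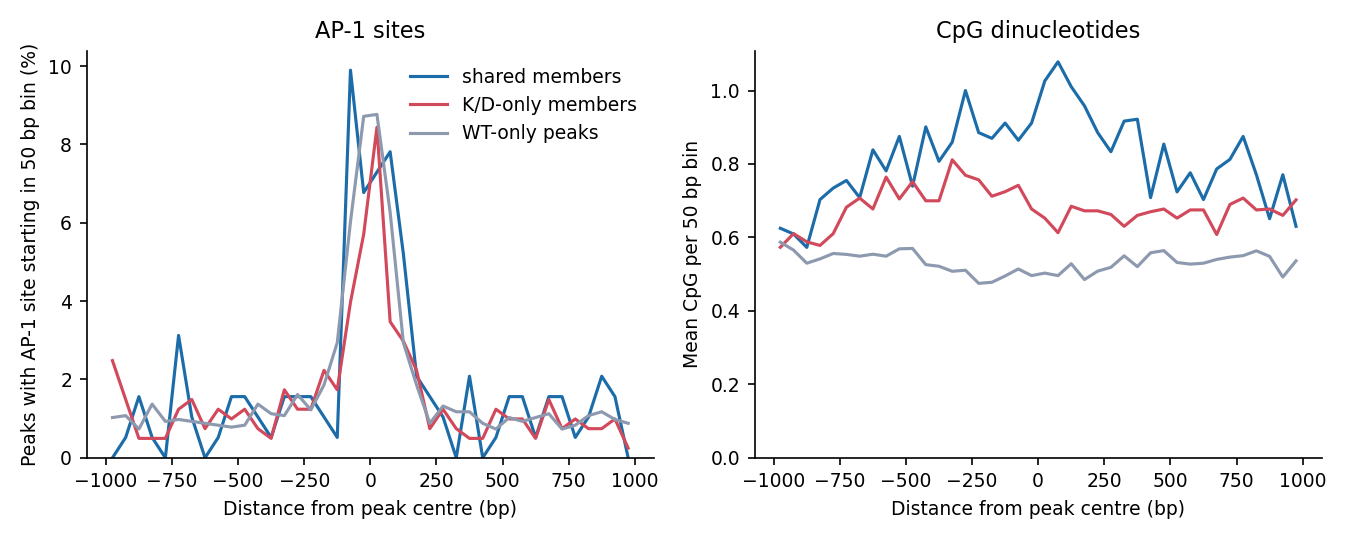
Left, share of peaks with an AP-1 site starting in each 50 bp bin (y axis, percent). Right, mean CpG dinucleotides per bin. The x axis is the distance from the peak centre in bp, and lines are the 3 classes. AP-1 sites reached 9.90% in a bin of shared members and 8.44% in a bin of K/D-only members.

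The median GC of the 201 bp window was 42.3% in shared, 38.3% in K/D-only and 40.8% in WT-only peaks, and CpG stood at a median of 2, 1 and 1. Windows with 10 or more CpG made up 9.90% of shared, 6.95% of K/D-only and 2.30% of WT-only peaks. These are descriptions without a test.

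Promoters reached from 1000 bp before a TSS to 100 bp after it. They held 22 shared (11.5%), 28 K/D-only (6.95%) and 81 WT-only peaks (3.97%). The odds ratio of K/D-only against WT-only peaks was 1.81 (1.12 to 2.85), and its interval reached below 1 in the first 50% of the list (1.89, 0.886 to 3.67) and with the WT list cut to equal length (1.65, 0.896 to 3.09). Shared against K/D-only gave 1.73 (0.915 to 3.24, Fisher's exact test, adjusted p = 0.122) and did not pass, though it did with 50% of each peak in common (2.29, adjusted p = 0.0165). Introns of protein-coding genes held 54.2% of shared and 49.4% of K/D-only members, and sequence between protein-coding genes 29.2% and 41.9%.

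The first 10 shared promoters were SYBU, MRPS28, GIPR, CNOT9, SCAP, FUZ, SRFBP1, PPP2R5A, TM4SF1 and SLIRP. SCAP escorts SREBP in sterol sensing and GIPR is the incretin receptor for GIP. Of the 22 shared promoters, 15 lay on WT DAXX and 11 on K/D DAXX, and 16 were centred within 100 bp of a TSS. Among the first 10 K/D-only promoters were ZHX1, ENSG00000283765, RBM8A, IQANK1, DNAJC14, RSPH14, HNRNPA2B1, OTUD6B and ATOSA. RBM8A is a core factor of the exon junction complex and HNRNPA2B1 an RNA-binding protein of the spliceosome. Of the 28, 11 lay on K/D DAXX and 6 on WT DAXX, and 14 were centred within 100 bp of a TSS. The median was 17.5 CpG in shared and 13.0 in K/D-only promoter windows, and 16 of 22 and 17 of 28 had 10 or more, while SYBU had 0, GIPR 1 and TM4SF1 3.

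**Figure D5:**
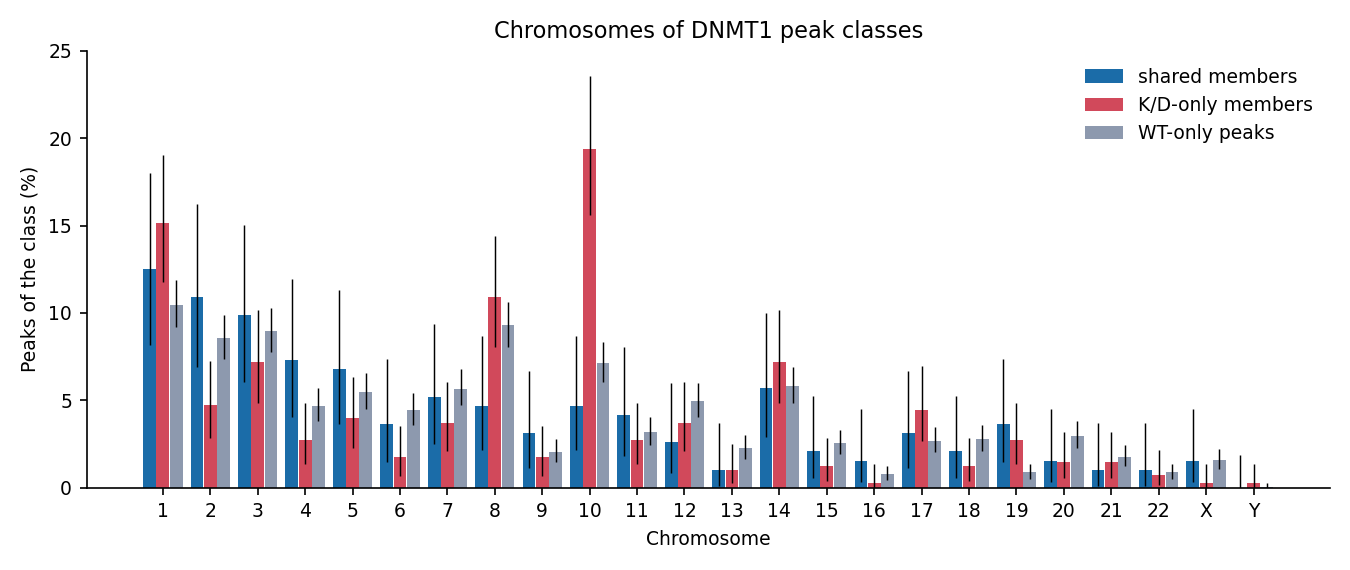
Share of peaks on each chromosome (y axis, percent of the class, x axis, chromosome) for shared members, K/D-only members and WT-only peaks, with exact 95% intervals as lines. Chromosome 10 held 19.4% of K/D-only members against 4.69% of shared members and 7.15% of WT-only peaks.

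Chromosome 10 held 78 of the 403 K/D-only members (19.4%, 15.6 to 23.6). It held 9 of 192 shared members (4.69%), 146 of 2042 WT-only peaks (7.15%) and 4.70% of the K/D DAXX peaks that had no WT DAXX peak in common. The 78 lay between 32665156 and 81906222 on the chromosome, and these members set the ends of this 49.2 Mb span. The span held 5 shared members (2.60%), 102 of the 2042 WT-only peaks and 4.79% of all WT DNMT1 peaks. It held 2.08% of all WT DAXX peaks and 2.18% of the K/D DAXX peaks without a WT DAXX peak in common. WT DNMT1 peaks thus also had a higher share there than these DAXX peaks, though a lower one than K/D-only members. Between 74 and 82 Mb, a window chosen after the values were seen, lay 33 K/D-only members (8.19%), 1 shared member (0.521%), 13 WT-only peaks (0.637%) and 0.394% of those K/D DAXX peaks. Peak numbers in the K/D list reached 835 on chromosome 10 for 87 listed peaks (10.4%), against a sum of 2502 for 595 (23.8%) over all chromosomes. In the WT DNMT1 list they reached 3181 for 155 (4.87%), against 13798 for 2234 (16.2%). What the numbers count is not stated in the header, and their part in the chromosome 10 count was not tested.

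Of the 78 on chromosome 10, 14.1% lay on K/D DAXX against 36.3% of the 325 other K/D-only members, and 82.1% against 55.4% on no DAXX peak of either line. None was at a promoter or had a CTCF motif, and 15.4% against 21.2% had an AP-1 site. Without chromosome 10 the odds ratio on WT DAXX was 2.53 (1.71 to 3.73) for shared against K/D-only and 0.425 (0.328 to 0.548) for K/D-only against WT-only.

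Members also lay in runs of 3 or more within 100 kb of each other. Around NR5A2, which encodes an orphan nuclear receptor, 6 K/D-only members lay in 139 kb of chromosome 1 (chr1:200036998-200175771) without a WT DNMT1 peak, and 3 of them lay on K/D DAXX and 2 on WT DAXX. On chromosome 10, VCL, the focal adhesion protein vinculin, and ADK, adenosine kinase, each held a run of 3 K/D-only members with no DAXX peak of either line on them. SIPA1L2 held 4 shared members in 13.7 kb and MAML3 and SCOC a run of 4 shared members. The run at ERCC1 and FOSB had 3 shared members and 1 K/D-only. Over whole genes, named after their values were seen, LRMDA held 8 members, all K/D-only and on chromosome 10, ADK 6, of which 5 were K/D-only, and CTNNA3 5, of which 4 were K/D-only. The same genes held 3, 2 and 6 WT-only peaks. Of 19785 protein-coding genes, 1.54% held a member between their ends (0.612% a shared and 1.02% a K/D-only member), and 38 held 2 or more.

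Of 280 listed genes 3 (1.07%) had a member within 10 kb of a TSS, near the 0.89% of all protein-coding genes. By class, the shares of all genes were 0.334% for shared, 0.571% for K/D-only and 2.28% for WT-only peaks. Those of the listed genes were 0.357%, 1.07% and 3.57%. At FOSB, an AP-1 subunit, a shared member lay 478 bp from the TSS (place 247) and a K/D-only member 8686 bp away. A K/D-only member lay 9369 bp from a TSS of PARD3, a polarity protein, and one 51 bp from a TSS of TGFB3, a TGF-beta ligand. The lists of EGFR ligands and MAPK feedback genes, NF-kB genes, YAP and TEAD targets, focal adhesion genes, autophagy genes (46 genes), ETS factors, androgen receptor and luminal genes, and DNA methylation machinery and DAXX partners (32 genes) had none. With a share of 0.89% over all genes, lists of this size are too short for a count of none to say anything about them. Between gene ends, 9 of the 280 (3.21%) held a member, against 1.54% of all protein-coding genes. K/D-only members lay in 6 (2.14%, against 1.02%), among them TGFB2, NRP1, VCL and UVRAG, named after their values were seen. WT-only peaks lay in 28 (10.0%, against 4.70%), so the higher share was not particular to the members. Gene length was not taken into account.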

How the data were processed

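ChIP-Seq peak lists of 6 libraries (DAXX, DNMT1 and H3(Lys4) in WT and K/D PC3 cells, 1 each) were used, and the 2 inputs have no list here. Per the labels the authors used CASAVA 1.8.2, Bowtie2 2.1.0 and HOMER 4.6 on hg19. The deposited columns are positions, and the deposited score is 1 for all peaks. Per the file headers each list was called against the input of its line with a 4.0-fold excess, and 74.8% of putative K/D DNMT1 peaks were removed by the input comparison. Only chromosomes 1 to 22, X and Y were used, which left out 5 K/D DNMT1 peaks. A peak shared at least 1 bp. Genes came from GENCODE 44 on GRCh37 (19785 protein-coding genes). Motifs were searched in 201 bp and in windows 2 kb to either side. Fisher's exact test was used with Benjamini-Hochberg adjustment over 9 tests, of which the 4 of K/D-only against WT-only peaks are given as odds ratios only, since each list is 1 library (SciPy 1.17.1, statsmodels 0.14.6, pysam 0.24.0). A repeat comparison was planned and not run, as the genome sequence has no repeat masking. Scripts were tested on simulated data. The members and lists were chosen with earlier results of these data known. The WT DAXX list cut to the length of the K/D DAXX list was added after seeing the data. Unless marked as chosen after their values were seen, members named were the first 8 of each class, the first 10 promoters of each class, those within 10 kb of a listed gene, runs, and the 5 on each side of the overlap border, with the containing gene or the nearest TSS as name. A promoter that this rule names is not reported here.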

Additional observations from a re-analysis of the deposited data

How the results depend on the processing

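The share of members and the 9 odds ratios were recomputed with centres within 100 bp, 50% of each peak in common, a gap of 1 kb or less, the WT list cut to the length of the K/D list, the first 50% of the list and without chromosome 10. The combination of the first and last 50% was run for the 5 comparisons of shared against K/D-only, and other windows and equal DAXX lists where they apply. Of 76 values, 63 stayed the same. For an odds ratio this means the same direction and side of the threshold, and for the share, which has no threshold, a value near 32.3%. The share of 32.3% moved to 27.1% with 50% in common, 26.1% with the WT list cut and 49.0% in the first 50%. For shared against K/D-only, the AP-1 odds ratio of 1.64 lost its call in the first 50% (1.68), without chromosome 10 (1.51), over both parts (1.59) and within 50 bp (1.03), and the promoter odds ratio gained one with 50% in common (2.29). For K/D-only against WT-only, the threshold describes 2 lists of 1 library each and not the conditions. There, K/D DAXX turned to 0.842 with the WT list cut. The interval reached past 1 for AP-1 in the first 50% (0.665) and within 50 bp (0.769). It reached below 1 for promoters with the WT list cut (1.65) and in the first 50% (1.89). The cause was not tested. With equal DAXX lists the WT DAXX odds ratios were 2.74 and 0.444. The 12050101 tags of the K/D DNMT1 library and a mean of 13.3 tags per peak leave members near the threshold of 9 uncertain, and a peak that was not called is not shown to be empty. No paired analysis was possible because each group has 1 library and no replicate numbers, and no library could be left out for the same reason. The repeat comparison was not run because the genome sequence has no repeat masking.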
